A study of Mus musculus with 16 samples.

Results

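The expression of 10 genes that macrophages use to take up dying cells and modified lipoproteins was described in mouse bone-marrow-derived macrophages (BMDMs): the bridging proteins Mfge8 and Gas6, the receptors for dying cells Axl, Timd4 and Stab1, and the scavenger receptors Msr1, Marco, Colec12, Cd36 and Scarb1. They were chosen by gene symbol, with Mertk left out of the set, and made up 10 of the 56980 rows of the count table. Of the 10, 9 passed the filter on low counts and Timd4 did not. RNA was measured by 3′ tag sequencing in 16 samples, 4 in each of 4 groups, and each of 4 batches held 1 sample of each group. The series design gives each sample as a separate animal.

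The groups were GrnKO TKO, GrnKO Rosa26, WT TKO and WT Rosa26. GrnKO cells came from Grn-/- mice, which lack progranulin, a secreted and lysosomal protein, and WT cells from Grn+/+ mice. TKO cells were nucleofected with Cas9 ribonucleoproteins that target 3 genes, Mitf, Tfe3 and Tfeb. These encode the MiT/TFE factors, which activate genes of lysosomes and autophagy. Rosa26 cells received the control edit of that locus. In all 4 groups the mice were given as males aged 12 weeks on C57Bl/6J with the hTfRmu/hu knock-in, the cells were thawed from frozen stocks and grown in 50 ng/mL M-CSF, and RNA was taken 10 days after transfection. The labels name no sorting or cloning of the edited cells, which are taken here as pools. Reads at the 3′ end also count transcripts of an edited gene, so the RNA of Mitf, Tfe3 and Tfeb does not check the edit.

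Dying cells expose phosphatidylserine, which phagocytes bind directly, through receptors such as Tim-4 (Timd4) and stabilin-1 (Stab1), or through soluble bridges. Mfge8 links phosphatidylserine to αv integrins, and Gas6 links it to the TAM receptor tyrosine kinases Tyro3, Axl and Mertk. Scavenger receptors of class A (Msr1, Marco, Colec12) and class B (Cd36, Scarb1) bind modified lipoproteins, microbes and other polyanionic or lipid ligands, and in macrophages some of them also bind dying cells.

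Library totals were 18387499 to 28511718 counts in GrnKO TKO, 28431505 to 32969401 in GrnKO Rosa26, 16246549 to 21463565 in WT TKO and 7069445 to 22469333 in WT Rosa26, the lowest being WT Rosa26 replicate 1. Depth therefore differed with genotype in Rosa26 cells and, with a slight overlap, with editing in GrnKO cells. Its part in the results was not tested. Grn was at 48.3 ± 6.78 CPM in GrnKO TKO and 48.5 ± 4.78 CPM in GrnKO Rosa26, against 3004 ± 327 CPM in WT TKO and 3239 ± 354 CPM in WT Rosa26 (mean ± SD, n = 4 each; CPM, the unit of all levels here, is a gene's count relative to the TMM-scaled library total). All 8 macrophage markers (Adgre1, Csf1r, Cd68, Itgam, Ptprc, Lyz2, Fcgr1 and Mertk) passed the filter in these cells. Their summed level was 7672 to 8535 CPM in GrnKO TKO, 6262 to 6642 in GrnKO Rosa26, 9620.1 to 10034 in WT TKO and 8122 to 10609 in WT Rosa26, so it was lowest in GrnKO Rosa26 cells. Lyz2 made up most of it, at 5009 ± 303 CPM in GrnKO TKO, 4119 ± 140 in GrnKO Rosa26, 6552 ± 202 in WT TKO and 6055 ± 628 in WT Rosa26. Adgre1, Itgam, Ptprc and Fcgr1 also had their lowest mean in GrnKO Rosa26. Csf1r, Cd68 and Mertk did not, and the mean of Mertk was highest there. All mice were labelled male, but 10 of 16 libraries had the X-inactivation RNA Xist over 50 CPM with the Y-linked Ddx3y at or under 10 CPM, as in cells of females, and 2 of the 6 libraries with Ddx3y over 10 CPM also had Xist over 50 CPM. The TKO and Rosa26 libraries of a genotype and batch fell on the same side of both limits in 8 of 8 pairs, so the comparisons of editing are balanced for this and those of genotype are not. Whether such a pair came from 2 animals or from cells of 1 animal cannot be told apart here, and n counts libraries.

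In GrnKO Rosa26 against WT Rosa26 cells, both bridging proteins and Scarb1 rose, and Stab1, Cd36 and Axl fell. These 6 of 9 tested members stand beside 44.5% of all genes called in that comparison, 23% risen (3 members) and 21.6% fallen (3 members), so the members' count is read against a large background. With Ddx3y as a covariate 6 members were also called. Editing of the MiT/TFE genes in GrnKO cells lowered Mfge8 and Gas6 and raised Stab1, Axl and Msr1, 5 members beside 32.6% of all genes (14.9% rose and 17.7% fell). Editing in WT cells lowered Mfge8 and Cd36 and raised Axl, 3 members beside 3.35% of all genes (2.18% rose and 1.17% fell), and 0 members passed there without batch 2. Between GrnKO TKO and WT TKO cells, Mfge8 alone was called among the members and was higher in GrnKO TKO, beside 4.99% of all genes (2.54% higher and 2.45% lower). A call is an adjusted p under 0.05 in edgeR's quasi-likelihood test, with Benjamini-Hochberg adjustment over all 15385 genes tested, and all adjusted p-values and log2 fold changes (± SE) below come from that fit. The p-values weigh a difference against the spread between these libraries, in a model with batch but without the pairs of a genotype and batch. In such bulk samples fewer cells of a type and less RNA per cell cannot be told apart.

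**Figure D1:**
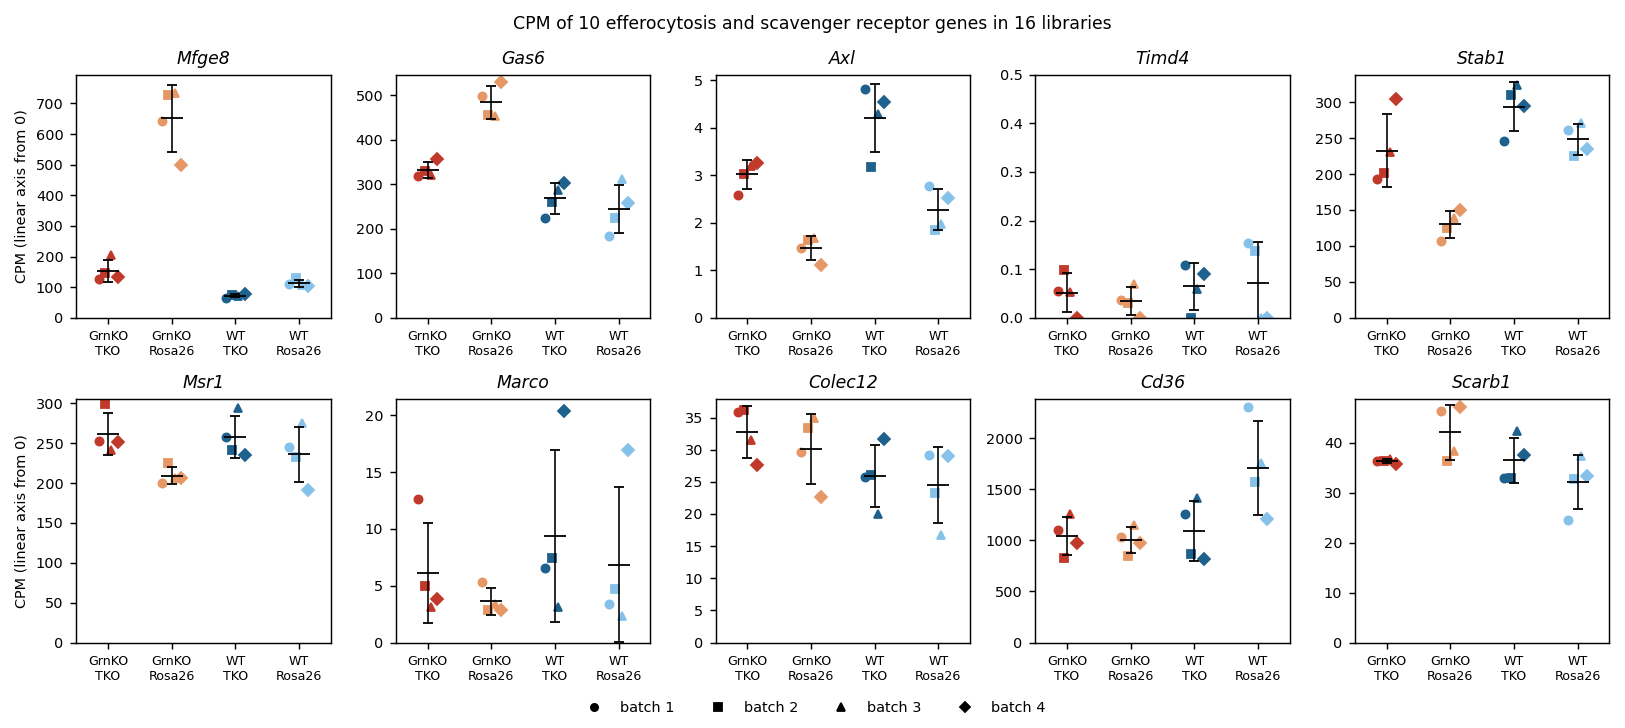
Level of the members in each library, in CPM on a linear axis that starts at 0, for GrnKO TKO, GrnKO Rosa26, WT TKO and WT Rosa26 cells; points are libraries (shape by batch), horizontal lines are means and error bars are SD (n = 4 per group). Mfge8 stood at 500.2 to 732 CPM in GrnKO Rosa26 and at most 205 CPM in every library of the other groups, and Cd36 had its highest mean in WT Rosa26.

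Mfge8 (ENSMUSG00000030605), the bridge to αv integrins, was at 127, 145, 205 and 134 CPM in GrnKO TKO and 642, 728, 732 and 500.2 CPM in GrnKO Rosa26 in batches 1 to 4. It was at 65.7, 74.4, 70.6 and 77.0 CPM in WT TKO and 109, 129.8, 108 and 104 CPM in WT Rosa26. GrnKO Rosa26 libraries were all above those of the other groups and WT TKO libraries all below, while GrnKO TKO and WT Rosa26 overlapped. The rise in GrnKO Rosa26 over WT Rosa26 was 5.74-fold (log2 2.52 ± 0.12, adjusted p = 1.71e-10), and it ranked 8 by p among all genes tested. With editing, Mfge8 fell by 2.10 ± 0.12 on the log2 scale in GrnKO cells (adjusted p = 2.04e-09) and by 0.64 ± 0.12 in WT cells (adjusted p = 0.00481). GrnKO TKO was above WT TKO by 1.06 ± 0.12 (adjusted p = 5.57e-05). GrnKO TKO was above WT Rosa26 by 0.42 ± 0.12 (adjusted p = 0.0244), higher in 4 of 4 batches although the groups overlapped. Leaving out GrnKO TKO replicate 3, the highest of its group, gave 0.28 with an adjusted p of 0.0882, and leaving out WT Rosa26 replicate 3 gave 0.33 with 0.0663, where the highest adjusted p over 25 settings was 0.0947.

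Gas6 (ENSMUSG00000031451), the ligand of the TAM receptors, was at 319, 329, 320.1 and 357 CPM in GrnKO TKO and 499.6, 455, 453 and 529.6 CPM in GrnKO Rosa26. It was at 224, 260.5, 288 and 304 CPM in WT TKO and 184, 225, 311 and 257 CPM in WT Rosa26. GrnKO Rosa26 lay above GrnKO TKO, and GrnKO TKO above both WT groups, without overlap; the WT groups overlapped each other. Gas6 rose 2.00-fold in GrnKO Rosa26 over WT Rosa26 (log2 1.00 ± 0.10, adjusted p = 5.26e-07) and fell by 0.55 ± 0.10 with editing in GrnKO cells (adjusted p = 5.06e-04). In WT cells the change with editing was 0.14 ± 0.10 (adjusted p = 0.529). GrnKO TKO stood above WT Rosa26 by 0.45 ± 0.10 (adjusted p = 0.00693), a call lost with only the 2 groups compared (0.0567) and without batch 2 (0.0963). Against WT TKO, GrnKO TKO was higher in 4 of 4 batches without overlap, at 0.31 ± 0.10, but the adjusted p was 0.085; it passed without WT Rosa26 replicate 3 (adjusted p = 0.0211), within a range of 0.00955 to 0.379 over settings. Gas6 overlaps Tmem255b on the opposite strand in the GENCODE M21 annotation, and the use of strand in counting was not stated.

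The promoters of these bridges are shown because they were the only members to rise in GrnKO Rosa26 and fall with editing in GrnKO cells. The sequences are the 250 bases before the annotated start, from RefSeq on GRCm38.p6, in the direction of the gene, at chr7:79149061-79149310 (minus strand) for Mfge8 and chr8:13494536-13494785 (minus strand) for Gas6. Capitals mark GGGCGG on either strand, a letter pattern of GC boxes that was chosen after the sequences were seen.
Mfge8: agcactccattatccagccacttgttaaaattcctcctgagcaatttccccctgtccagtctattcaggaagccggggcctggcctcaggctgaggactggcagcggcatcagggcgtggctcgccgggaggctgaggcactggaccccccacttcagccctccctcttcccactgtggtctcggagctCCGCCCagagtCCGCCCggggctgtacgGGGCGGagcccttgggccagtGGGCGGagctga
Gas6: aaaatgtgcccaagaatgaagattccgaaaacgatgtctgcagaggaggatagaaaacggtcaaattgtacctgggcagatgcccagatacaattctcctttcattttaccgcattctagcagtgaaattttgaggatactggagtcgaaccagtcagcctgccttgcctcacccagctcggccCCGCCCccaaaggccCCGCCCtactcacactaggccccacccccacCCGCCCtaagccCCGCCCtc
Each of the 2 windows held 4 copies of GGGCGG, which occurred in 32.7% of the 32851 windows of this length in the table. Promoters of 7 of the 10 members were in that table, and Msr1, Scarb1 and Colec12 had no entry. GGGCGG was searched for after these sequences had been seen, and it was in 4 of the 7 member windows, those of Cd36 (2 copies) and Axl (1 copy), which fell in GrnKO Rosa26, included. The E-box core CACGTG, bound by MiT/TFE factors among other proteins, was in none of the 7 member windows on either strand, against 6.02% of all windows. The longer TCACGTGA, which contains CACGTG, and the related TCATGTGA were in none of the 7 either, and in 0.785% and 0.846% of all windows. AGGTCA, a letter pattern of nuclear receptor sites, was in the Cd36 and Timd4 windows and in 14% of all windows. These are letter matches in a short window and say nothing of binding, nor of sites outside the window.

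Axl (ENSMUSG00000002602), the TAM receptor with high affinity for Gas6, was a low gene here, with 18 to 100 counts per library. It was at 2.59, 3.03, 3.20 and 3.25 CPM in GrnKO TKO and 1.46, 1.64, 1.67 and 1.12 CPM in GrnKO Rosa26, against 4.82, 3.16, 4.30 and 4.53 CPM in WT TKO and 2.76, 1.84, 1.98 and 2.52 CPM in WT Rosa26. Every TKO library was above the Rosa26 libraries of its genotype. Axl rose with editing in GrnKO cells (log2 1.04 ± 0.20, adjusted p = 7.63e-04) and in WT cells (0.91 ± 0.21, adjusted p = 0.0185). The difference between these changes was 0.13 ± 0.29, with a 95% interval of -0.48 to 0.73 (adjusted p = 0.81). In GrnKO Rosa26 against WT Rosa26, Axl fell by 0.59 ± 0.22 (adjusted p = 0.033), lower in 4 of 4 batches. This call was lost in 7 of 24 settings, among them leaving out WT Rosa26 replicate 1 (adjusted p = 0.0789) or 4 (0.11) or GrnKO Rosa26 replicate 1 (0.0753) or 4 (0.152), with a range of adjusted p over settings of 0.0137 to 0.216. The WT editing call was lost without WT TKO replicate 1 (0.0667) or 4 (0.0777) or WT Rosa26 replicate 2 (0.0793), within a range of 0.0038 to 0.0909.

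Mertk and Tyro3 are the other TAM receptors. Mertk was at 145 ± 11.0 CPM in GrnKO TKO, 193 ± 22.5 in GrnKO Rosa26, 131 ± 30.0 in WT TKO and 101 ± 26.1 in WT Rosa26. It rose in GrnKO Rosa26 over WT Rosa26 (0.95 ± 0.10, adjusted p = 1.16e-06) and fell with editing in GrnKO cells (-0.41 ± 0.10, adjusted p = 0.00509), so in these comparisons its directions were those of Gas6 and the opposite of Axl's. With editing in WT cells, where Axl rose, Mertk was higher in 3 of 4 batches and was not called. Tyro3 was at 1.28 ± 0.247 CPM in GrnKO TKO, 1.53 ± 0.271 in GrnKO Rosa26, 1.74 ± 0.385 in WT TKO and 1.22 ± 0.191 in WT Rosa26, and no comparison of it passed the test.

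Timd4 (ENSMUSG00000055546), the phosphatidylserine receptor Tim-4 of many resident macrophages, had 0 to 3.1 counts per library and 17.1 in all, with 5 of 16 libraries at 0. A count of 3 corresponds to 0.0883 CPM in the deepest library and 0.461 CPM in the shallowest, so Timd4 was at or near that limit throughout and no difference was detectable at this depth.

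Stab1 (ENSMUSG00000042286) encodes stabilin-1, an endocytic receptor for modified lipoproteins, matrix proteins and phosphatidylserine. It was at 193, 201, 231 and 304 CPM in GrnKO TKO and 107, 124, 139.5 and 150.1 CPM in GrnKO Rosa26. It was at 246, 310.1, 324 and 295 CPM in WT TKO and 261, 225, 270.4 and 235 CPM in WT Rosa26. GrnKO Rosa26 libraries were all below every other library, and the other 3 groups overlapped. Stab1 fell by 0.94 ± 0.11 in GrnKO Rosa26 against WT Rosa26 (adjusted p = 1.71e-06) and rose by 0.83 ± 0.11 with editing in GrnKO cells (adjusted p = 1.71e-05). Its change with editing in WT cells was 0.24 ± 0.11 (adjusted p = 0.256). GrnKO TKO and WT Rosa26 differed by -0.11 ± 0.11, with a 95% interval of -0.33 to 0.11 (adjusted p = 0.531). GrnKO TKO against WT TKO gave -0.35 ± 0.10 (adjusted p = 0.0603), which passed without GrnKO TKO replicate 4, the highest of its group (-0.48, adjusted p = 0.0158), without WT Rosa26 replicate 1 (0.0301) or without WT Rosa26 replicate 4 (0.0416), within a range of 0.00443 to 0.455 over settings. Stab1 overlaps Nt5dc2 on the opposite strand in GENCODE M21.

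**Figure D2:**
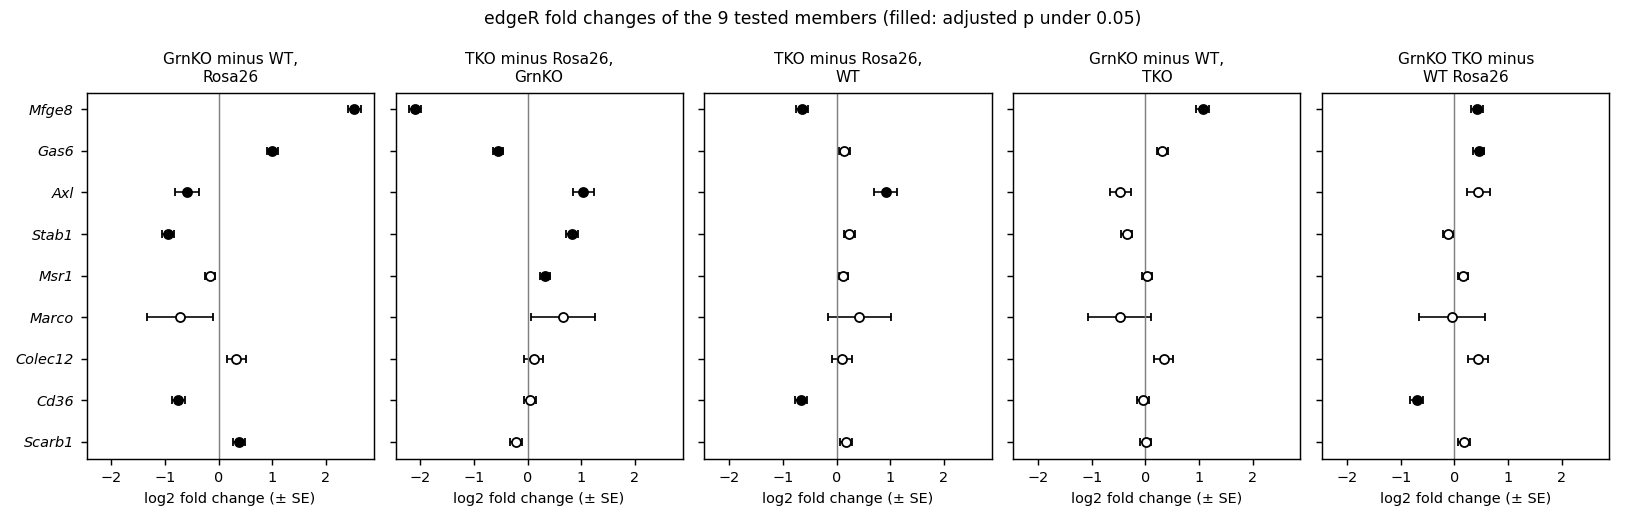
Log2 fold change of the 9 tested members in the comparisons named on the plot, as points ± SE from the edgeR fit; filled points passed an adjusted p of 0.05. Comparisons share groups, so a high or low GrnKO Rosa26 value enters both the genotype comparison in Rosa26 cells and the editing comparison in GrnKO cells; Mfge8 had 2.52 and -2.10 in them, and Stab1 -0.94 and 0.83.

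Stab1 and Colec12 are also known from endothelium. Of 7 endothelial markers 4 passed the filter, and the summed level of the 7 was 26.9 to 32.6 CPM in GrnKO TKO, 34.2 to 41.8 in GrnKO Rosa26, 17.9 to 23.3 in WT TKO and 14.0 to 17.0 in WT Rosa26. Kdr made up most of it, at 24.0 ± 3.19 CPM in GrnKO TKO, 35.9 ± 3.50 in GrnKO Rosa26, 15.3 ± 1.74 in WT TKO and 11.8 ± 1.22 in WT Rosa26. Lyve1, a hyaluronan receptor of lymphatic endothelium and some macrophages, was ordered otherwise, at 2.698 ± 0.687 CPM in GrnKO TKO, 0.654 ± 0.127 in GrnKO Rosa26, 3.45 ± 1.36 in WT TKO and 1.02 ± 0.277 in WT Rosa26. It rose with editing in GrnKO cells (2.03 ± 0.26, adjusted p = 1.72e-05) and in WT cells (1.78 ± 0.28, adjusted p = 0.00102), and its mean, like that of Stab1, was lowest in GrnKO Rosa26. The defining markers Cdh5 and Pecam1 were at most 0.881 and 1.98 CPM in any library, and Tek, Tie1 and Emcn at most 0.461, 0.315 and 0.219 CPM. The summed level of 5 erythroid and megakaryocyte markers, 2 of which passed the filter, was 526 to 693 CPM in GrnKO TKO, 209.9 to 268 in GrnKO Rosa26, 817 to 943 in WT TKO and 384 to 522 in WT Rosa26. Nearly all of that was Pf4, with Hba-a1 at 0 in every library and Itga2b at most 1.22 CPM. The part of these genes in the results was not tested.

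Among the class A scavenger receptors, changes were small or varied between batches. Msr1 (ENSMUSG00000025044), the macrophage receptor for acetylated and oxidised LDL, was at 253, 299.6, 241 and 252 CPM in GrnKO TKO and 199.8, 225, 206 and 206 CPM in GrnKO Rosa26. It was at 257, 242, 294 and 236 CPM in WT TKO and 246, 232, 275 and 192 CPM in WT Rosa26. GrnKO TKO libraries were all above GrnKO Rosa26 libraries, and the WT groups overlapped. Msr1 rose by 0.32 ± 0.09 with editing in GrnKO cells (adjusted p = 0.0106), a call lost without GrnKO TKO replicate 2, its highest library (0.25, adjusted p = 0.0505, highest over settings 0.0616). The other comparisons of Msr1 did not pass, with adjusted p of 0.142 for GrnKO Rosa26 against WT Rosa26 and 0.527 for editing in WT cells.

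Marco (ENSMUSG00000026390), a receptor for bacteria and particles, was at 12.7, 4.94, 3.10 and 3.86 CPM in GrnKO TKO and 5.35, 2.88, 3.38 and 2.88 CPM in GrnKO Rosa26. It was at 6.57, 7.44, 3.12 and 20.4 CPM in WT TKO and 3.38, 4.71, 2.34 and 17.0 CPM in WT Rosa26. The GrnKO pair of batch 1 and the WT pair of batch 4 stood high, in TKO and Rosa26 libraries alike, and all 4 groups overlapped. No comparison passed in the main fit, with adjusted p of 0.38 to 0.972. With a replicate block per genotype and batch, the rise with editing in GrnKO cells was 0.64 ± 0.18 and passed (adjusted p = 0.00681), against 0.66 ± 0.59 (adjusted p = 0.431) without that block, and 3 of 4 batches were higher in GrnKO TKO. That rise also passed in edgeR with only the 2 groups compared (0.67 ± 0.17, adjusted p = 0.0040).

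Colec12 (ENSMUSG00000036103), a collectin with scavenger receptor function, was at 35.8, 36.2, 31.5 and 27.6 CPM in GrnKO TKO and 29.6, 33.4, 34.9 and 22.7 CPM in GrnKO Rosa26. It was at 25.7, 26.0, 20.0 and 31.7 CPM in WT TKO and 29.2, 23.2, 16.7 and 29.0 CPM in WT Rosa26. The groups overlapped in every comparison and no comparison passed. The value for GrnKO Rosa26 against WT Rosa26 was 0.33 ± 0.18 (adjusted p = 0.156), which passed without GrnKO Rosa26 replicate 4, the lowest of its group (0.50, adjusted p = 0.0251), and with no filter on low counts (0.44, adjusted p = 8.55e-04, the lowest of a range up to 0.532). Several annotated transcripts overlap Colec12 in GENCODE M21.

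Cd36 (ENSMUSG00000002944), the class B receptor for oxidised LDL, long-chain fatty acids and thrombospondin, had the highest tag count of the members, a value not scaled by length. It was at 1101, 823, 1259 and 974 CPM in GrnKO TKO and 1035, 849.6, 1151 and 971 CPM in GrnKO Rosa26. It was at 1259, 868, 1412 and 816 CPM in WT TKO and 2304, 1571, 1758 and 1205 CPM in WT Rosa26. WT Rosa26 stood above every GrnKO Rosa26 library and overlapped the TKO groups, and the other 3 groups overlapped each other. Cd36 fell by 0.75 ± 0.11 in GrnKO Rosa26 against WT Rosa26 (adjusted p = 5.2e-05) and by 0.66 ± 0.11 with editing in WT cells (adjusted p = 0.00303), lower in 4 of 4 batches in both. Editing in GrnKO cells gave 0.04 ± 0.11, with a 95% interval of -0.19 to 0.28 (adjusted p = 0.802). GrnKO TKO was below WT Rosa26 by 0.71 ± 0.11 on the log2 scale (adjusted p = 8.56e-04), and GrnKO TKO against WT TKO gave -0.05 ± 0.11 (adjusted p = 0.879). The highest library, WT Rosa26 replicate 1, was also the shallowest of all, and no Cd36 call was lost without it. The fall with editing in WT cells did not pass with the batch term dropped (adjusted p = 0.143, the highest over settings).

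Scarb1 (ENSMUSG00000037936), the HDL receptor SR-BI, was at 36.3, 36.2, 36.7 and 35.7 CPM in GrnKO TKO and 46.4, 36.4, 38.4 and 47.1 CPM in GrnKO Rosa26. It was at 32.8, 32.9, 42.4 and 37.6 CPM in WT TKO and 24.6, 32.8, 37.4 and 33.4 CPM in WT Rosa26. The ranges overlapped in every comparison. It rose by 0.38 ± 0.11 in GrnKO Rosa26 over WT Rosa26 (adjusted p = 0.00903), higher in 4 of 4 batches, and the call was lost without WT Rosa26 replicate 1, the shallowest library (0.28, adjusted p = 0.0517, the highest over settings). Editing in GrnKO cells gave -0.21 ± 0.11 (adjusted p = 0.145) and editing in WT cells 0.17 ± 0.11 (adjusted p = 0.485). The GrnKO change was negative in 4 of 4 batches. It passed with only the 2 groups compared (-0.18 ± 0.07, adjusted p = 0.0466) and with no filter on low counts (-0.28, adjusted p = 0.0486), within a range of 0.0466 to 0.515. Scarb1 overlaps Gm42633 on the same strand in GENCODE M21.

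**Figure D3:**
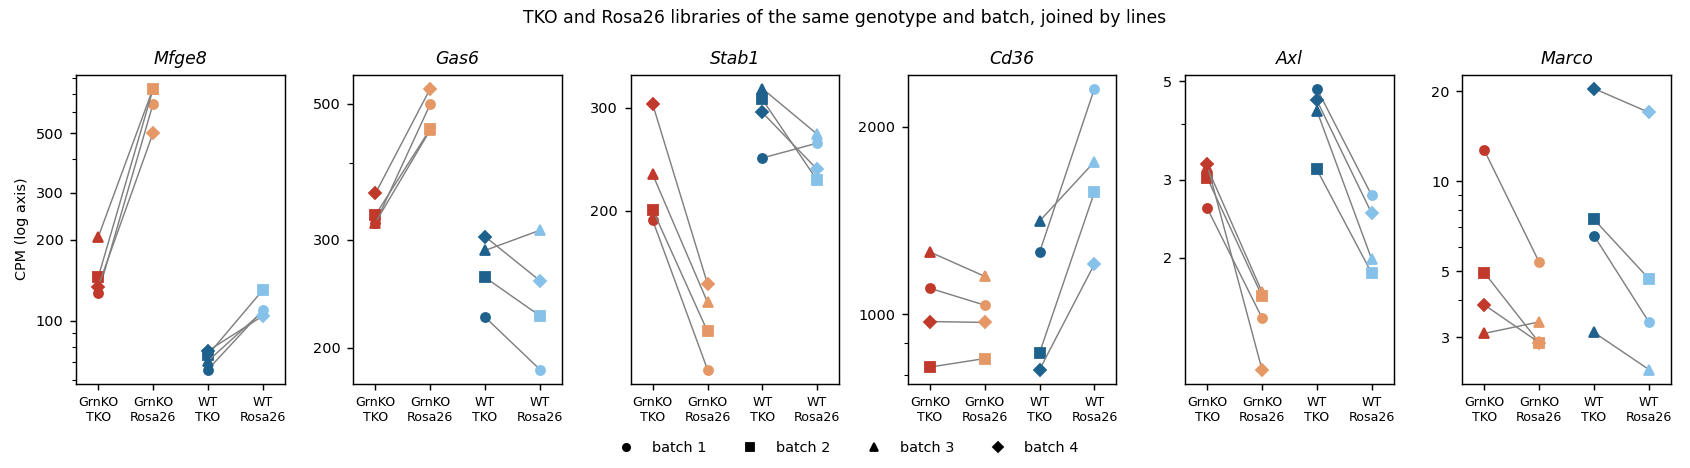
Mfge8, Gas6, Stab1, Cd36, Axl and Marco in the TKO and Rosa26 library of each genotype and batch, in CPM on a log axis, with a line joining the libraries of 1 batch (4 lines per genotype). Mfge8 was lower in TKO in all batches of both genotypes, while Cd36 was lower in TKO in all 4 WT batches and in 1 of 4 GrnKO batches.

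The difference between the change with editing in GrnKO cells and that in WT cells was tested directly. It passed for 4 of 9 tested members, beside 13.3% of all genes (5.84% with a positive and 7.51% with a negative difference). The fall of Mfge8 was larger in GrnKO cells (difference -1.46 ± 0.16, adjusted p = 4.87e-05), and the fall of Gas6 in GrnKO cells differed from its change in WT cells (-0.69 ± 0.14, adjusted p = 0.00478). The rise of Stab1 in GrnKO cells was larger than its change in WT cells (0.59 ± 0.15, adjusted p = 0.0141). For Cd36 the difference was 0.70 ± 0.16 (adjusted p = 0.00928), with the fall in WT cells and no call in GrnKO cells. With the batch term dropped, Stab1 (adjusted p = 0.0642) and Cd36 (0.137) did not pass, the highest values over their settings, and Cd36 did not pass without batch 2 (0.0585). The Scarb1 difference was -0.38 ± 0.16 (adjusted p = 0.109), and passed at -0.39 ± 0.12 (adjusted p = 0.0258) with a replicate block per genotype and batch. It also passed without WT Rosa26 replicate 3 (0.0474) or GrnKO Rosa26 replicate 3 (0.0494), within a range of 0.0188 to 0.246. Over the whole table, that block called 3609 genes for the difference, against 2053 without it, and 1174 for editing in WT cells, against 515.

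GrnKO TKO cells were also set against WT Rosa26 cells, a pair that differs in genotype and edit at once. Of 9 tested members 3 passed, Mfge8 and Gas6 higher and Cd36 lower in GrnKO TKO, beside 12.7% of all genes (6.42% higher and 6.3% lower). The median log2 fold change of the 9 tested members was 0.17 in this comparison, beside -0.01 over all genes. It was -0.17 beside 0.00 for GrnKO Rosa26 against WT Rosa26, 0.11 beside -0.00 for editing in GrnKO cells and 0.14 beside -0.01 for editing in WT cells. These comparisons share the GrnKO Rosa26, GrnKO TKO or WT Rosa26 libraries with one another.

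Other receptors and bridges for dying cells were counted in a list of 24 genes, 21 of them tested. In GrnKO Rosa26 against WT Rosa26, 6 rose and 9 fell (71.4% called, beside 44.5% of all genes), with editing in GrnKO cells 8 rose and 4 fell (57.1% beside 32.6%), and with editing in WT cells 4 rose and 4 fell (38.1% beside 3.35%). This and the lists below were chosen with earlier results of these data known, and their shares were not tested against those of all genes. The median log2 fold changes of the list were -0.09, 0.04 and 0.02 in these comparisons, beside the medians over all genes given above. Itgb3, the integrin subunit that pairs with αv to bind Mfge8, was at 7.53 ± 0.306 CPM in GrnKO TKO, 19.6 ± 1.04 in GrnKO Rosa26, 3.04 ± 0.277 in WT TKO and 4.96 ± 1.23 in WT Rosa26. Like Mfge8 it rose in GrnKO Rosa26 over WT Rosa26 (2.01 ± 0.14, adjusted p = 4.48e-09) and fell with editing in GrnKO cells (-1.38 ± 0.13, adjusted p = 4.95e-07) and in WT cells (-0.68 ± 0.16, adjusted p = 0.0196). Itgav, the αv subunit, went the other way, with a fall in GrnKO Rosa26 and a rise with editing in GrnKO cells. Its mean was 42.1 CPM in GrnKO Rosa26, 66.9 in WT Rosa26 and 55.1 in GrnKO TKO. Itgb5, another integrin subunit, had means of 143, 157 and 177 CPM in these groups. Itgb5 rose with editing in GrnKO cells and was not called in GrnKO Rosa26 against WT Rosa26. C1qa, a chain of the complement component that coats dying cells, was at 757 ± 28.9 CPM in GrnKO TKO, 338 ± 38.0 in GrnKO Rosa26, 952 ± 56.6 in WT TKO and 647 ± 42.7 in WT Rosa26. It fell in GrnKO Rosa26 against WT Rosa26 (-0.94 ± 0.07, adjusted p = 9.68e-09) and rose with editing in GrnKO cells (1.17 ± 0.07, adjusted p = 1.3e-09) and in WT cells (0.56 ± 0.07, adjusted p = 9.17e-05). C1qb also fell in GrnKO Rosa26, with means of 229 CPM there and 277 in WT Rosa26. C1qc, at 270 and 288 CPM, was not called in that comparison. Both C1qb and C1qc rose with editing in GrnKO and in WT cells. Cd300a, an inhibitory receptor for phosphatidylserine, rose in GrnKO Rosa26 (0.71 ± 0.08, adjusted p = 8.9e-07) and fell with editing in GrnKO cells (-0.79 ± 0.08, adjusted p = 7.41e-07).

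Of 15 other scavenger receptors 13 were tested. In GrnKO Rosa26 against WT Rosa26, 3 rose and 5 fell (61.5% called, beside 44.5% of all genes). With editing, 6 rose and 4 fell in GrnKO cells (76.9% beside 32.6%), and 3 rose and 0 fell in WT cells (23.1% beside 3.35%). The list medians were -0.18, 0.18 and 0.13. Olr1, the oxidised LDL receptor LOX-1, was at 3.25 ± 0.764 CPM in GrnKO TKO, 0.983 ± 0.302 in GrnKO Rosa26, 7.82 ± 1.46 in WT TKO and 2.80 ± 0.323 in WT Rosa26. It fell in GrnKO Rosa26 against WT Rosa26 (-1.53 ± 0.20, adjusted p = 8.23e-06) and rose with editing in GrnKO cells (1.72 ± 0.19, adjusted p = 4.18e-06) and in WT cells (1.46 ± 0.18, adjusted p = 9.17e-05). Mrc1, the mannose receptor, rose with editing in GrnKO cells (0.65 ± 0.09, adjusted p = 4.32e-05) and in WT cells (0.43 ± 0.09, adjusted p = 0.00992). Cxcl16, a membrane-bound chemokine that binds oxidised LDL, fell in GrnKO Rosa26 (-0.90 ± 0.08, adjusted p = 1.04e-07) and rose with editing in GrnKO cells (0.75 ± 0.08, adjusted p = 2.68e-06).

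Genes of the intracellular engulfment machinery numbered 20, of which 19 were tested. In GrnKO Rosa26 against WT Rosa26, 5 rose and 2 fell (list median 0.05), and with editing in GrnKO cells 2 rose and 3 fell (-0.12). These are 36.8% and 26.3% of the list, below the 44.5% and 32.6% of all genes called in these comparisons. Ptk2, the focal adhesion kinase, fell in GrnKO Rosa26 against WT Rosa26 (-0.66 ± 0.11, adjusted p = 1.11e-04) and rose with editing in GrnKO cells (0.52 ± 0.11, adjusted p = 0.00159). Elmo1, part of a Rac activator, and Was, an actin nucleation factor, rose in GrnKO Rosa26 (0.45 ± 0.12, adjusted p = 0.00465, and 0.36 ± 0.09, adjusted p = 0.00294) and fell with editing in GrnKO cells (-0.43 ± 0.12, adjusted p = 0.00838, and -0.39 ± 0.09, adjusted p = 0.00237). Of 9 genes for find-me and don't-eat-me signals, 8 were tested, and 2 rose and 3 fell in GrnKO Rosa26 (list median -0.01), and 2 rose and 1 fell with editing in GrnKO cells (0.06), which are 62.5% and 37.5% of the list beside the same shares of all genes. Among these Cx3cr1, the fractalkine receptor, was at 18.2 ± 5.81 CPM in GrnKO TKO, 3.77 ± 1.00 in GrnKO Rosa26, 51.5 ± 17.6 in WT TKO and 33.9 ± 13.0 in WT Rosa26.

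Nuclear receptors and related factors that are known to regulate uptake genes made a list of 8, all tested, of which 4 rose and 3 fell in GrnKO Rosa26 against WT Rosa26 (list median 0.21). With editing in GrnKO cells 2 rose and 0 fell (-0.04). These are 87.5% and 25% of the list, beside 44.5% and 32.6% of all genes. Pparg, a lipid-sensing factor known to induce Cd36, was at 13.7 ± 2.87 CPM in GrnKO TKO, 11.8 ± 1.77 in GrnKO Rosa26, 13.5 ± 4.15 in WT TKO and 20.6 ± 4.64 in WT Rosa26. Like Cd36, Pparg was highest in WT Rosa26 by mean, and a link between them was not tested. It fell in GrnKO Rosa26 against WT Rosa26 (-0.79 ± 0.13, adjusted p = 7.57e-05) and with editing in WT cells (-0.63 ± 0.13, adjusted p = 0.0102), gave 0.21 ± 0.13 with editing in GrnKO cells (adjusted p = 0.219), and the difference between the genotypes passed (0.84 ± 0.18, adjusted p = 0.00671). Nr1h2, the gene of LXRβ, fell in GrnKO Rosa26 (-0.54 ± 0.10, adjusted p = 4.09e-04) and Ppard rose (0.94 ± 0.19, adjusted p = 4.23e-04). Nr1h3, the gene of LXRα, was called as a rise, with means of 37.2 CPM in GrnKO Rosa26 and 29.5 in WT Rosa26.

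**Figure D4:**
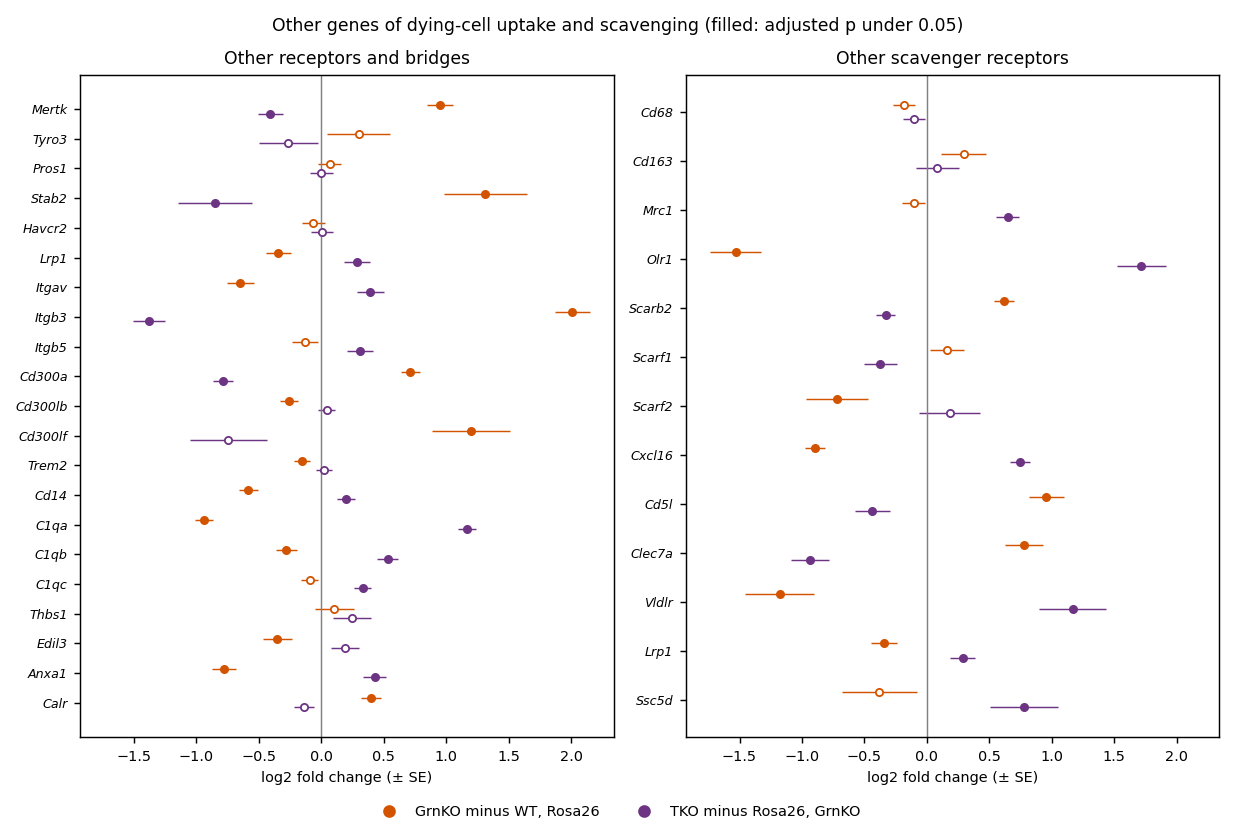
Log2 fold change ± SE of the tested genes of the lists of other receptors and bridges (left) and other scavenger receptors (right), for GrnKO Rosa26 against WT Rosa26 cells and for GrnKO TKO against GrnKO Rosa26 cells; filled points passed an adjusted p of 0.05. Both comparisons use the GrnKO Rosa26 libraries, so a gene high or low there appears on opposite sides; Itgb3 had 2.01 and -1.38, and Olr1 -1.53 and 1.72.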

How the data were processed

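Polyadenylated RNA of 16 samples was sequenced as QuantSeq 3′ tags with unique molecular identifiers, per the labels' protocols. The build GRCm39 is named in the submitters' processing notes, with R 4.5.1, edgeR 4.6.2, Salmon 1.10.1 and STAR 2.7.9a as tools whose roles are not stated. How molecular identifiers and strand were handled, and the annotation, are not given in the sources used here. Estimated counts per gene made up the deposited table, since 11.0% of non-zero counts were not whole, and all were given to 2 significant digits. The normalised signal deposited by the authors, a CPM scale per the values, was used for 1 alternative.

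These counts were made whole by rounding and tested in R 4.3.3 with edgeR 4.0.16 (filterByExpr on group, which left 15385 genes, TMM, glmQLFit with the robust option, glmQLFTest). All 16 libraries entered 1 model with group and batch terms. The biological coefficient of variation was 12.0%, and totals of 7069445 to 32969401 counts set the precision. CPM is the rounded count divided by the library total times the TMM factor, on the usual CPM scale. Levels of 3′ tags are not scaled by length. Differences per batch are of log2(CPM + 0.5). Fitted fold changes of low genes depend on edgeR's prior count.

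Alternatives were RLE scaling, no filter, genes of at least 5 CPM on average, the DESeq2 1.42.0 test, limma 3.58.1 (limma-trend) on log2 of the deposited signal plus 1, the batch term dropped, a block per genotype and batch, Ddx3y as a covariate, only the 2 groups compared, each library left out in turn and, chosen after seeing the data, batch 2 left out. Deviations from group means were correlated between the TKO and Rosa26 libraries of 1 genotype and batch. The values were 0.254 to 0.432 in GrnKO (mean 0.363) and 0.260 to 0.501 in WT (mean 0.351). Across genotypes the means were 0.0507 to 0.106, with single batches from -0.199 to 0.306, so single values overlapped. No correlation was computed between unmatched batches, so the pairing by number was not itself tested. The members and lists were chosen with earlier results of these data known. Genes named are all members, Mertk and Tyro3, the label checks, and from each other list up to 4 called genes of smallest p per comparison. Itgav, Itgb5, C1qc and Nr1h3 are named as well, beside related genes of their lists. A gene of the list of other scavenger receptors is not reported here and is left out of the list's counts and median. Coordinates and promoter sequences are of GRCm38.p6, not of the build of the counts.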

Additional observations from a re-analysis of the deposited data

Results flagged for a closer look

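Marco in WT Rosa26 replicate 4 (17.0 CPM) stood apart from the other libraries of its group (2.34 to 4.71 CPM), with a gap of 0.838 of the group's range. Of 36 groups of 4 libraries examined, 1 showed such a gap, and chance gives about 1 in 20. The WT TKO library of the same batch was also high, at 20.4 CPM.

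The change with editing differed between genotypes for 4 members, by the test of the difference itself in edgeR. GrnKO minus WT was -1.46 for Mfge8 and -0.69 for Gas6, and 0.59 for Stab1 and 0.70 for Cd36, on the log2 scale. The Gas6 and Stab1 changes passed in GrnKO cells and not in WT cells, the Cd36 change passed in WT cells and not in GrnKO cells, and the Mfge8 change passed in both.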

How the results depend on the processing

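Over 26 settings, 1314 of 1362 values of members kept their side of the threshold, 28 no longer passed and 20 passed only there. While 0 called values changed sign, some values never called did. Marco with editing in WT cells, at 0.43 in the main fit, went as low as -0.08. The causes were not tested. Genes called moved by over 1.5 times as follows. For editing in WT cells (515, 3 members), DESeq2 gave 808, no replicate block 216, the replicate block within genotype 1174, and leaving out batch 2 gave 129 with 0 members (Mfge8 at adjusted p = 0.0816, Axl 0.0909, Cd36 0.0813). For GrnKO TKO against WT TKO (768, 1 member), DESeq2 gave 1208, no block 345, the 2 groups alone 492 and no batch 2 gave 120, while no filter and DESeq2 each called 3 members. For GrnKO TKO against WT Rosa26 (1956, 3 members), no block gave 730, the 2 groups alone 502 with 1 member, and no batch 2 gave 419 with 1 member. For the difference between genotypes (2053, 4 members), no block gave 902 with 2 members, the block within genotype 3609, and no batch 2 gave 1150. With 1 library left out, genes and members called were 5792 to 7285 and 4 to 6 for GrnKO Rosa26 against WT Rosa26, 3509 to 5585 and 4 to 5 for editing in GrnKO, 259 to 751 and 2 to 3 for editing in WT, 277 to 1144 and 1 to 2 for GrnKO TKO against WT TKO, 942 to 2698 and 2 to 3 for GrnKO TKO against WT Rosa26, and 1202 to 3601 and 4 to 5 for the difference. The libraries whose omission moved a count of genes by over 1.5 times were WT TKO replicates 2 (263) and 4 (266) and WT Rosa26 replicates 1 (305) and 2 (259) for editing in WT; GrnKO TKO replicates 2 (317) and 4 (389) and WT TKO replicates 2 (277), 3 (306) and 4 (468) for GrnKO TKO against WT TKO; GrnKO TKO replicates 2 (1007) and 4 (1298) and WT Rosa26 replicate 2 (942) for GrnKO TKO against WT Rosa26; and GrnKO TKO replicate 4 (1272), GrnKO Rosa26 replicates 1 (1237) and 2 (1317), WT TKO replicate 4 (1202) and WT Rosa26 replicate 3 (3601) for the difference. The 2 members in GrnKO TKO against WT TKO were called without GrnKO TKO replicate 4 or WT Rosa26 replicate 1, 3 or 4. On the deposited signal, the share of calls that rose was 65.6% against 51.6% for GrnKO Rosa26 against WT Rosa26, 34.0% against 45.6% for editing in GrnKO, 79.1% against 65.0% for editing in WT, 66.4% against 50.5% for GrnKO TKO against WT Rosa26 and 23.6% against 43.7% for the difference; with no filter it was 61.9% for GrnKO Rosa26 against WT Rosa26, 62.5% for GrnKO TKO against WT Rosa26 and 32.1% for the difference. The block per genotype and batch changed no member call other than those of Marco and Scarb1 given above. Calls of single genes outside the members were not followed over the settings. Depth limits Timd4, which was at or near the limit that a count of 0 allows.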

Other observations

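Other genes of the lists were also called in GrnKO TKO against WT Rosa26 cells. Of the 13 tested scavenger receptors outside the members, 3 were higher and 1 was lower in GrnKO TKO, and of the 21 tested receptors and bridges 5 were higher and 3 lower, beside 12.7% of all genes called. Cd5l, a secreted protein of tissue macrophages, was at 1331 ± 168 CPM in GrnKO TKO, 1801 ± 167 in GrnKO Rosa26, 926 ± 218 in WT TKO and 957 ± 293 in WT Rosa26, and was higher in GrnKO TKO than in WT Rosa26 by 0.52 ± 0.14 (edgeR adjusted p = 0.0241). That log2 difference ran from 0.06 in batch 1 to 1.15 in batch 4, and the groups overlapped. Scarb2, the gene of the lysosomal membrane protein LIMP-2, was at 229 ± 12.6 CPM in GrnKO TKO, 288 ± 8.46 in GrnKO Rosa26, 214 ± 12.9 in WT TKO and 188 ± 19.7 in WT Rosa26. Its change with editing was -0.33 ± 0.08 in GrnKO cells (adjusted p = 0.00353) and 0.19 ± 0.08 in WT cells (adjusted p = 0.229).

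Anxa1, a secreted phosphatidylserine-binding protein, was at 662 ± 123 CPM in GrnKO TKO, 489.6 ± 73.4 in GrnKO Rosa26, 666 ± 153 in WT TKO and 845 ± 206 in WT Rosa26. It rose with editing in GrnKO cells (0.43 ± 0.09, edgeR adjusted p = 0.00195) and fell with editing in WT cells (-0.35 ± 0.09, adjusted p = 0.0424), and the difference was 0.78 ± 0.13 (adjusted p = 0.00115). In WT cells the log2 change per batch ran from -0.62 to -0.0024, and the groups overlapped.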
